A study of Mus musculus with 10 samples.

Results

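Wild-type (WT) mouse oocytes at metaphase II (MII) were compared with WT oocytes at the germinal vesicle (GV) stage to see which transcripts change in relative level while the egg matures. The comparison rests on 4 of the 10 arrays of the series, chosen by the genotype and stage in their labels, 2 of WT MII oocytes and 2 of WT GV oocytes. The other 6 arrays hold oocytes of Patl2-/- females, 3 at MII and 3 at GV, and served for the estimate of spread and for a side-by-side reading of the same maturation step. WT MII oocytes came from females given 5 UI of PMSG, a gonadotropin that makes follicles grow, and 48 h later 5 UI of hCG, which triggers ovulation, and were collected 12 h after hCG according to the labels and an hour later according to the methods. WT GV oocytes came from females given 5 UI of PMSG alone and were collected 44 h later, in medium that according to the methods held dibutyryl cyclic AMP, which keeps oocytes in meiotic arrest. Patl2-/- females received the same hormones and lacked exon 7 of Patl2, which encodes an RNA-binding protein of the oocyte. That allele was made in C57BL/6NTac mice by crossing a floxed line with mice that express Cre from the adenovirus EIIa promoter, and the strain of the WT females is not given in the sources used here. Females ranged from weaning age to young adulthood according to the methods, and the age at each array is not given.

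Each array carried RNA of a pool of oocytes, 28 to 46 at MII and 20 to 32 at GV according to the labels, stripped of follicular cells with hyaluronidase and a pipette. From each pool 250 pg of total RNA was labelled and hybridised to a Clariom D mouse array, which reads most exons of coding and non-coding genes. The exons are summarised into 1 value for each transcript cluster, the array's unit for a gene or transcript locus. Values are normalised log2 levels, so a difference of 1 is a fold of 2. Since every array received the same mass of RNA, a level is relative to the RNA labelled. The arrays alone cannot tell loss of a transcript from each cell apart from a rise of the rest of the RNA. The paper reports less RNA per oocyte at MII than at GV, assuming even recovery from the columns. At equal RNA mass a transcript unchanged in amount per oocyte would then read as higher at MII. Whether the rises below hold per oocyte was not tested. The labels call the arrays biological replicates, but no source says which animals gave which pool, so the p-values cover no more than the spread among the arrays. An exact permutation test of 2 arrays against 2 cannot go below p = 0.33, and all adjusted p-values below are from limma fitted over all clusters with Benjamini-Hochberg adjustment.

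Transcription stops in the oocyte in the last stages of its GV development, which according to the paper goes with a change of its chromatin. The methods name no sorting of the GV pools by that change. The oocyte stores the mRNAs made during its growth. Between GV breakdown and the second meiotic arrest it translates some of them by lengthening their poly(A) tails. It shortens the tails of others and degrades them. The proteins that mask, recruit or destroy these mRNAs, and the kinases that drive the meiotic divisions, are themselves made from this store.

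The arrays were of oocytes by their own markers. Of 11 oocyte markers, all 11 lay above log2 6 on every WT array, with medians of 15.55 and 15.58 in WT MII oocytes, against 15.71 and 16.09 in WT GV oocytes. Of 28 granulosa and cumulus cell markers, 2 lay above log2 6 on each WT MII array and 5 on each WT GV array, and their summed linear levels were 1501 and 1487 in WT MII oocytes, against 3983 and 1686 in WT GV oocytes. The high sum was that of WT GV replicate 1, where Inha, an inhibin subunit of granulosa cells, reached 11.04, against 7.76 in WT GV replicate 2 and 6.69 and 5.41 in the WT MII arrays. Nr5a2 was the highest of the 28 on both WT MII arrays (9.16 and 9.36) and on WT GV replicate 2 (9.06). Foxl2 and Amh, which define granulosa cells, stayed at 3.34 to 4.63 on all 4 arrays, where the median cluster lay at 4.48 to 4.56. Of 19 markers of theca, stroma, vessel and blood cells, Pecam1 alone lay above log2 8 on each WT array. It had 9.98 and 10.32 in WT MII oocytes and 9.91 and 9.89 in WT GV oocytes. Of the 28 granulosa and cumulus cell markers 2 fell, Hsd17b1 by 1.45 and Inhba by 0.88. Both calls were lost without any 1 of the 4 WT arrays (adjusted p of 0.0698 to 0.161 and of 0.0591 to 0.177). That of Hsd17b1 was also lost without Patl2-/- MII replicate 2 (0.0539) or 3 (0.0604), and that of Inhba without Patl2-/- MII replicate 1 (0.0563). The part of follicular RNA in the changes below was not tested.

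Of 65956 transcript clusters, 3426 (5.19%) were lower and 1293 (1.96%) were higher in WT MII than in WT GV oocytes at an adjusted p under 0.05. The WT MII and WT GV arrays were separate in every called cluster and in 45.1% of all clusters. Lack of overlap thus adds nothing to a call. The falls were much the larger. Their median difference was -1.63 on the log2 scale, against 0.71 for the rises, 654 clusters fell and 9 rose by 3 log2 units or more, and the median over all clusters was 0.02. Leaving out WT MII replicate 1 left 1845 falls and 632 rises, leaving out WT MII replicate 2 left 2093 and 1230, and without WT GV replicate 1 or 2 the counts were 2870 and 656 or 2516 and 684. The balance of falls and rises depends on scaling. Falls made up 72.6% of the calls with the deposited values, 37.7% after the arrays were quantile normalised once more (2833 lower, 4689 higher) and 6.44% when each array was centred on bright clusters, of mean log2 8 or more (3018 lower, 43879 higher), a step that shifted the median of all clusters to 0.47. The count of falls thus moved little with scaling and the count of rises moved greatly. It also moved with the fit, to 581 falls and 47 rises (92.5% falls) when the 4 WT arrays were fitted alone.

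Calls were concentrated among expressed transcripts. Of 49640 clusters with a mean below log2 6 over the 10 arrays 1.17% fell and 0.566% rose, whereas of 1010 clusters at log2 14 or more 27% fell and 9.11% rose. WT MII arrays had fewer clusters above log2 8, 8761 and 8954, than WT GV arrays, 9599 and 9807. The 2 WT MII arrays correlated at r = 0.993 across clusters and the 2 WT GV arrays at r = 0.991, against 0.965 to 0.967 between the stages.

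**Figure D1:**
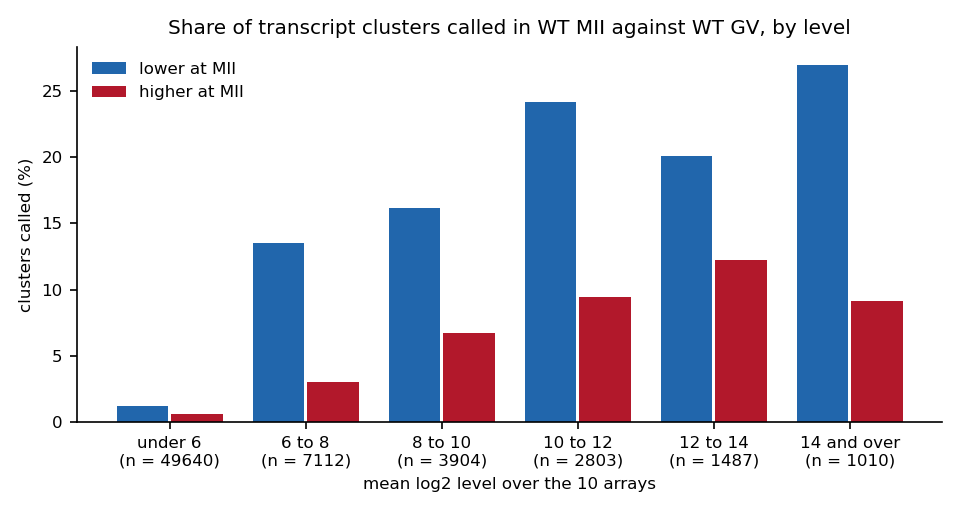
Share of transcript clusters called in WT MII against WT GV oocytes (percent, vertical axis) by mean log2 level over the 10 arrays (horizontal axis, with the number of clusters in each bin). Blue bars are clusters lower at MII and red bars clusters higher at MII. Falls outnumber rises in every bin, from 1.17% against 0.566% below log2 6 to 27% against 9.11% at log2 14 or more.

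Among protein-coding genes read through a single cluster, 1001 of 19050 (5.25%) fell and 669 (3.51%) rose, with a median difference of 0.03. These shares are the background for the gene groups below. Most of those groups are brighter than coding genes at large, whose median level in WT GV oocytes was log2 5.55. Among the 4945 coding genes at a mean log2 of 8 or more, 9.67% fell and 11% rose, with a median difference of 0.13. Counts in a bright group, above all its rises, are to be read beside these shares. Genes whose transcripts fell were short on the chromosome. The median gene span in RefSeq was 11.4 kb for the 983 falls with a span and 32.7 kb for the 667 rises, against 18.5 kb for all 18980 coding genes. Among genes at a mean log2 of 8 or more the medians were 12.5 kb for falls and 36.2 kb for rises, against 28.9 kb for all, and falls had a median of 13.5 kb, against 29.8 kb for all, with ribosomal protein and oxidative phosphorylation genes set aside. The 90 genes that fell by 3 log2 units or more had a median span of 4.94 kb. These medians are descriptions and were not tested.

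**Figure D2:**
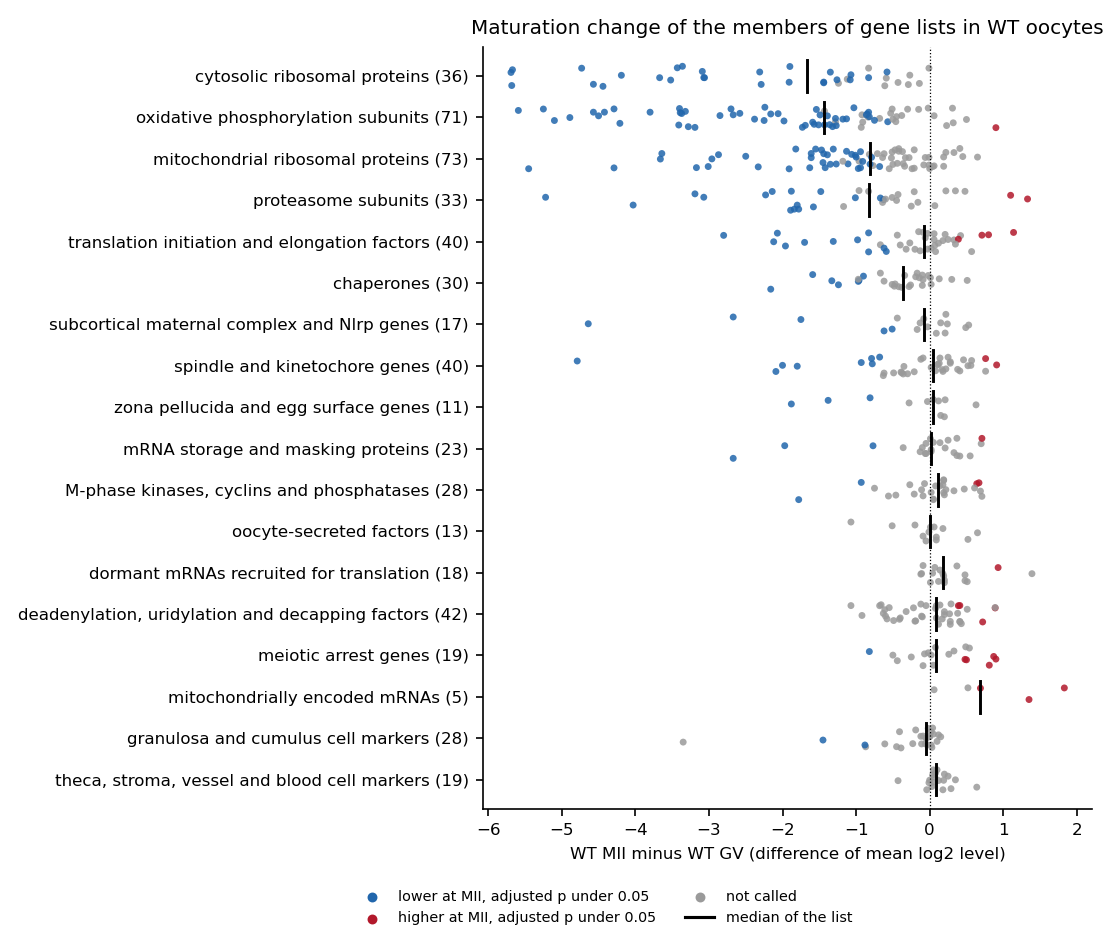
Difference of mean log2 level, WT MII minus WT GV (horizontal axis), for each measured member of 18 gene lists (rows, number of members in brackets). Blue points fell and red points rose at an adjusted p under 0.05, grey points were not called, and black bars are list medians. Cytosolic ribosomal proteins and oxidative phosphorylation subunits lie farthest left, with medians of -1.67 and -1.43, and mitochondrially encoded mRNAs lie to the right at 0.69.

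The mRNAs of the cytosolic ribosome, which build the machinery of protein synthesis, fell together. Of 82 genes for ribosomal proteins in the list, 36 had a cluster annotated to them alone, and 26 of these fell, none rose and 10 were not called, with a median difference of -1.67. For 8 of the 36 genes the cluster lay on another chromosome than the gene in RefSeq, where copies of such genes occur. A dimmer cluster on the gene's own chromosome could take its place for 6 of the 8, and with clusters on that chromosome alone 25 of 34 fell with a median of -1.70. When clusters that also name other genes were admitted, a choice made after seeing the data, 57 of 73 members fell with a median of -1.59. Rps29, of the small subunit, had log2 levels of 8.41 and 8.33 in WT MII oocytes, against 13.85 and 14.28 in WT GV oocytes. Both MII arrays lay far below both GV arrays, and the difference was -5.69 ± 0.48 (SE, adjusted p = 0.000344), a level 51.7-fold lower at MII. Rps4x, also of the small subunit, had 8.20 and 7.59 at WT MII and 12.06 and 12.61 at WT GV (difference -4.44, adjusted p = 0.000373). Rpl39, of the large subunit, had 5.42 and 5.71 at WT MII and 9.59 and 9.92 at WT GV (difference -4.19 ± 0.16, adjusted p = 2.3e-05). The stages did not overlap for either gene, as for every called cluster. Rpsa and Rps7, further small-subunit proteins, fell by 3.67 and 3.52 log2 units. The list was not uniform. Rpl4, of the large subunit, fell little, with 14.02 and 14.37 at WT MII against 15.38 and 15.16 at WT GV (difference -1.07, adjusted p = 0.00348), and Rps27l, a paralog of Rps27, was at 11.87 and 11.96 at WT MII against 11.71 and 12.14 at WT GV, with overlapping arrays.

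Pseudogenes of ribosomal proteins followed the same course. Of 209 such clusters 156 (74.6%) fell and 0 rose, with a median of -2.38, whereas of all 4296 clusters of the pseudogene class 725 (16.9%) fell and 144 rose. They are not 209 independent readings, since a processed pseudogene shares sequence with its parent gene and its probes can bind the parent's mRNA, and 5 of the 209 repeat the values of another cluster exactly. Among the 15 named clusters with the steepest falls, 12 were pseudogenes of ribosomal proteins, and the steepest was Rpl10a-ps1, with 8.30 and 8.26 at WT MII against 15.46 and 15.72 at WT GV (difference -7.31 ± 0.51, adjusted p = 0.000143). Rpl39-ps had 7.47 and 7.63 at WT MII and 13.36 and 13.76 at WT GV (difference -6.01 ± 0.17), and its adjusted p of 1.76e-05 was the smallest of the comparison. Whether the locus or the parent gene gave these signals was not tested.

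Many ribosomal protein mRNAs begin with a 5′ terminal oligopyrimidine tract, a cytosine followed by a run of pyrimidines, through which growth signals set their translation. The windows of 2 members that fell are shown because both hold such a tract at the annotated start. They run from 10 bases before to 20 bases from the start in RefSeq (GRCm38.p6), and the capitals mark the tract.
Rps10, chromosome 17: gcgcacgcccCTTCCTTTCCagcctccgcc
Rpl38, chromosome 11: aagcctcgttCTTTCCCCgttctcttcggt
Rps10 fell by 2.29 and Rpl38 by 1.90 log2 units. A C followed by 4 pyrimidines, read on the gene's own strand, stood at the annotated start of 2 of the 15 falling members with a promoter sequence (13.3%) and of 1 of 8 members that were not called (12.5%), against 13 of 61 list genes (21.3%) and 673 of 27025 promoters in all (2.49%). Outside the ribosomal list it stood at 14 of 809 coding genes that fell (1.73%) and 10 of 556 that rose (1.8%), against 313 of 15407 tested (2.03%). The match says only which letters stand at the annotated start.

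Translation factors moved less and in both directions. Of 40 measured initiation and elongation factors 11 fell and 4 rose, with a median of -0.08, and the falls numbered 5 without WT MII replicate 1 and 6 without WT MII replicate 2 or without WT GV replicate 2. Initiation factor 3 is the scaffold that brings the small ribosomal subunit to mRNA, and of its 11 measured subunits 6 fell, 1 rose and 4 were not called. Eif3k had 10.36 and 10.76 at WT MII and 13.12 and 13.60 at WT GV (difference -2.80, adjusted p = 0.000438), and Eif3m, Eif3l and Eif3h fell by 2.12, 1.96 and 1.70 log2 units. The falls of Eif3f, by 2.07, and of Eif3c, by 0.98, were lost without WT MII replicate 1 (0.128 and 0.209), WT MII replicate 2 (0.0558 and 0.116) or WT GV replicate 2 (0.0806 and 0.166), and that of Eif3c also without WT GV replicate 1 (0.132) and without Patl2-/- MII replicate 2 (0.0748), Patl2-/- MII replicate 3 (0.0573) or Patl2-/- GV replicate 3 (0.064). Eif3b, another subunit of the same complex, went the other way, with 11.35 and 11.78 at WT MII against 10.37 and 10.49 at WT GV (difference 1.14, adjusted p = 0.00474). Eif4e1b, the oocyte form of the cap-binding protein, had 14.38 and 14.32 at WT MII and 13.49 and 13.79 at WT GV (difference 0.71, adjusted p = 0.00859), a rise that was lost without WT MII replicate 1 (adjusted p = 0.0611).

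Nuclear genes for oxidative phosphorylation, the mitochondrial chain that makes ATP, fell as steeply. Of 71 measured subunits 49 fell, 1 rose and 21 were not called, with a median of -1.43, and the falls numbered 38 to 49 as each WT array was left out. Ndufa2, of complex I, had 8.89 and 8.65 at WT MII and 14.07 and 14.65 at WT GV (difference -5.59 ± 0.30, adjusted p = 6.81e-05). Uqcrq, of complex III, had 7.54 and 8.48 at WT MII and 12.83 and 13.38 at WT GV (difference -5.10), and Cox4i1, of complex IV, had 6.82 and 6.67 at WT MII and 10.88 and 11.44 at WT GV (difference -4.42). In all 3 genes the WT MII arrays lay over 4 log2 units below the nearer WT GV array. Atp5md, a small protein of the ATP synthase membrane part that the list did not hold, was the steepest named protein-coding fall, with 8.71 and 8.52 at WT MII against 14.30 and 14.61 at WT GV (difference -5.84 ± 0.30, adjusted p = 6.49e-05, 57.3-fold lower). The exception was Atp5g1, 1 of several genes for the same c-subunit of ATP synthase, with 14.01 and 14.18 at WT MII against 13.05 and 13.33 at WT GV (difference 0.90, adjusted p = 0.0146), whose call was lost without WT MII replicate 1 (0.0572), WT MII replicate 2 (0.0844) or WT GV replicate 1 (0.081).

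The mitochondrial genome, which encodes a few subunits of the same complexes, did not follow. Of its 13 mRNAs 5 had a cluster annotated to them alone, and 0 fell, 3 rose and 2 were not called, with a median of 0.69. The other mRNAs were read through clusters that name several genes. That of ND4 and ND4L rose by 0.87 (adjusted p = 0.0307). Those of ND5 with CYTB (0.54), ND1 with mt-Rnr2 (-0.07) and ATP8 with ATP6 and COX3 (-0.08) were not called. ND3, of complex I, had 15.26 and 15.24 at WT MII and 13.21 and 13.64 at WT GV (difference 1.83 ± 0.25, adjusted p = 0.00358). ND2, of the same complex, had 13.60 and 13.92 at WT MII and 12.22 and 12.61 at WT GV (difference 1.35), and COX1, of complex IV, was level at 15.72 and 15.91 at WT MII and 15.76 and 15.75 at WT GV. ND3 was the member whose call held without any WT array. ND2 was lost without WT MII replicate 1 (adjusted p = 0.0506), WT MII replicate 2 (0.0858) or WT GV replicate 1 (0.0793), and COX2, higher by 0.69, was lost without any of the 4 (0.12 to 0.147), so the rises numbered 1 without WT MII replicate 1, WT MII replicate 2 or WT GV replicate 1. COX2 was also lost without Patl2-/- MII replicate 3 or any 1 of the 3 Patl2-/- GV arrays (0.0517 to 0.0629).

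Proteins of the mitochondrial ribosome, which translate those few mRNAs, are encoded in the nucleus and fell. Of 73 measured genes 36 fell and none rose, with a median of -0.81, and 23 fell without WT MII replicate 1. Mrps18c had 7.00 and 7.04 at WT MII and 12.12 and 12.82 at WT GV (difference -5.45, adjusted p = 5.46e-05). Mrps22 had 8.81 and 8.60 at WT MII and 12.23 and 12.49 at WT GV (difference -3.66). Mrpl46, Mrpl14, Mrpl55 and Mrpl28 fell by 4.29, 3.64, 3.17 and 3.01 log2 units.

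Proteasome subunits, which form the particle that degrades ubiquitin-marked proteins, fell in part. Of 33 measured genes 16 fell, 2 rose and 15 were not called, with a median of -0.83. The falls numbered 11 to 17 as each WT array was left out and 10 after a second quantile normalisation. Psmb1, a subunit of the catalytic core, had 9.75 and 9.62 at WT MII and 14.51 and 15.31 at WT GV (difference -5.22, adjusted p = 7.79e-05), and Psma6, of the outer ring, had 11.19 and 11.19 at WT MII and 14.32 and 14.45 at WT GV (difference -3.19, adjusted p = 6.02e-05). Psmb7, another subunit of the same core, was higher at 15.08 and 14.91 at WT MII, against 13.80 and 13.99 at WT GV (difference 1.10, adjusted p = 0.000737). So neighbours in 1 particle moved in opposite directions. Psmd3, of the regulatory lid, rose by 1.33, a call lost without WT MII replicate 1 (0.0692) or WT MII replicate 2 (0.0731), which left 1 rise in the list.

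**Figure D3:**
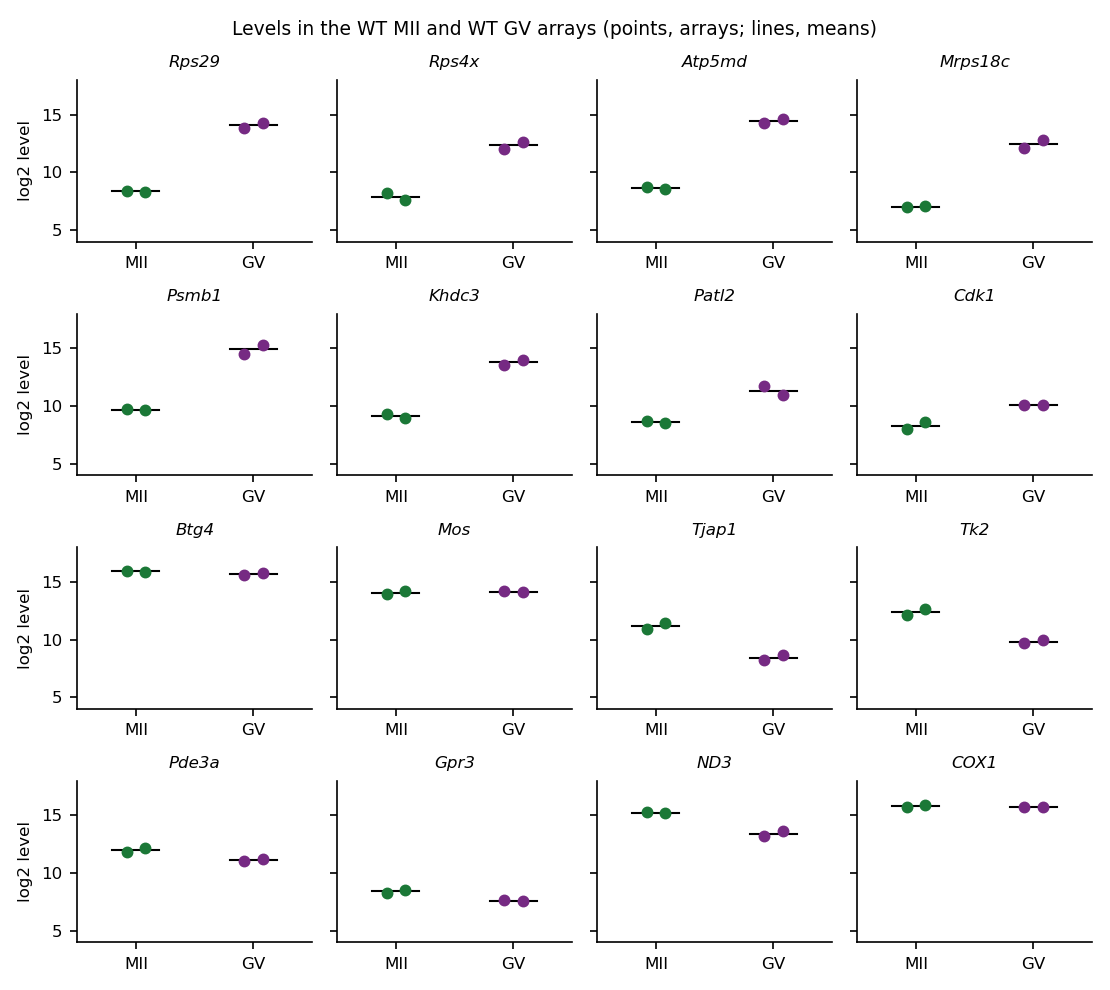
Log2 level (vertical axis, 1 scale for all panels) of 16 genes in the 2 WT MII arrays (green, left) and the 2 WT GV arrays (purple, right). Points are arrays and lines are means. Rps29, Rps4x, Atp5md, Mrps18c, Psmb1 and Khdc3 lie over 3 log2 units lower at MII, Tjap1 and Tk2 lie higher by 2.72 and 2.59, and Btg4, Mos and COX1 lie within 0.20 of each other in their means.

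Proteins that store and mask mRNA set when a message is used. Of 23 measured genes 3 fell, 1 rose and 19 were not called, with a median of 0.02. Patl2 fell steeply, with 8.73 and 8.55 at WT MII against 11.70 and 10.92 at WT GV (difference -2.67 ± 0.30, adjusted p = 0.00143, 6.37-fold lower). Its levels on the Patl2-/- arrays were 6.10 to 6.59 at MII and 7.36 to 8.07 at GV, below every WT array, in a value that sums all exons of the gene, of which exon 7 is deleted. Pabpc1, which binds poly(A) tails, had 7.78 and 7.91 at WT MII and 10.14 and 9.50 at WT GV (difference -1.97, adjusted p = 0.00496). Cpeb1, which binds the cytoplasmic polyadenylation element, fell by 0.77, a call lost without WT MII replicate 1 (0.201), WT MII replicate 2 (0.0983) or WT GV replicate 1 (0.175), and also without any 1 of the 3 Patl2-/- MII arrays or Patl2-/- GV replicate 3 (0.0598 to 0.0701). The abundant masking proteins were not called. Ybx2, known as Msy2, had 13.80 and 13.82 at WT MII and 13.02 and 13.19 at WT GV (difference 0.70, adjusted p = 0.0651), and Zar1 had 16.67 and 16.78 at WT MII and 16.93 and 17.24 at WT GV (difference -0.36, adjusted p = 0.13). The status of Ybx2 depended on the processing. It was called higher after a second quantile normalisation (1.08, adjusted p = 0.0117) and with centring on bright clusters (1.15, adjusted p = 0.00262). It was also called when clusters of mean log2 8 or more alone were tested (adjusted p = 0.0203).

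Of 42 measured genes for deadenylation, uridylation and decapping, the factors that remove mRNA, 0 fell and 4 rose (9.52%), with a median of 0.09 that reached 0.54 with centring on bright clusters. Among coding genes at a mean log2 of 8 or more 9.67% fell and 11% rose. Btg4, an adaptor that brings the deadenylase to maternal mRNA and is translated during maturation, had 15.93 and 15.87 at WT MII and 15.63 and 15.77 at WT GV (difference 0.20, adjusted p = 0.307), and was called higher after a second quantile normalisation (0.60, adjusted p = 0.00716) and with centring on bright clusters (0.65, adjusted p = 0.0022). Cnot7 and Cnot6l, its deadenylases, differed by 0.12 and 0.20 (adjusted p = 0.477 and 0.272), and Dcp1a, a decapping activator, had 16.37 and 16.62 at WT MII and 15.82 and 16.15 at WT GV, a difference of 0.51 that was not called (adjusted p = 0.0737). Cnot7, Cnot6l and Dcp1a were called higher after a second quantile normalisation (0.49, 0.75 and 0.88, adjusted p of 0.000955 to 0.00763). With centring on bright clusters they were called too (0.57, 0.65 and 0.96, adjusted p of 0.00144 to 0.00319). Dcp1a was also called when clusters of mean log2 8 or more alone were tested (adjusted p = 0.0303). The 4 rises were small and unsteady. Pan2, of the PAN2-PAN3 deadenylase, rose by 0.89 and was lost without WT MII replicate 2 (0.0633) or WT GV replicate 2 (0.0564), and Pan3, Patl1 and Ythdf3 were lost without any of the 4 WT arrays (adjusted p up to 0.208). Patl1 was also lost without each Patl2-/- array but MII replicate 2 (0.0532 to 0.0693), and Ythdf3 without each but GV replicate 1 (0.0521 to 0.0711). The list had 0 rises without WT MII replicate 2 and 1 without each of the other WT arrays, not in each case 1 of these 4.

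Dormant mRNAs are those known to be polyadenylated and translated only after GV breakdown. Of 18 measured genes 0 fell and 1 rose, with a median of 0.18, and 13 were called higher after a second quantile normalisation and 16 with centring on bright clusters. The largest difference was that of Tex19.1, with 9.77 and 10.03 at WT MII against 8.04 and 8.98 at WT GV (1.39, adjusted p = 0.174), which was called with that centring (0.00846) and when clusters of mean log2 8 or more alone were tested (0.0494). Mos, the kinase that sets up the second meiotic arrest, had 13.92 and 14.17 at WT MII and 14.19 and 14.08 at WT GV (difference -0.09, adjusted p = 0.898), Plat, the tissue plasminogen activator, differed by 0.14, and Ccnb2, a mitotic cyclin, by 0.19. In Mos, Plat and Ccnb2 the arrays of the stages overlapped. Bub1b, a spindle checkpoint protein, was the rise, with 14.83 and 15.01 at WT MII against 13.72 and 14.27 at WT GV (difference 0.93, adjusted p = 0.0146), and was lost without WT MII replicate 1 (0.0571) or WT MII replicate 2 (0.0848).

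Meiotic arrest at GV rests on cyclic AMP in the oocyte, made under the receptor Gpr3 and destroyed by the phosphodiesterase Pde3a, and on kinases that inhibit Cdk1. Of 19 measured genes 5 rose and 1 fell, with a median of 0.08. Gpr3 had 8.31 and 8.55 at WT MII and 7.69 and 7.55 at WT GV (difference 0.81 ± 0.10, adjusted p = 0.00294). The regulatory subunits of protein kinase A moved apart. Prkar2a had 9.61 and 9.71 at WT MII and 8.80 and 8.78 at WT GV (difference 0.87, adjusted p = 0.00575), and Prkar1a had 7.18 and 7.20 at WT MII and 7.93 and 8.10 at WT GV (difference -0.82, adjusted p = 0.00123). The other rises were less steady. Pde3a, higher by 0.90, was lost without any of the 4 WT arrays (0.0506 to 0.111), Wee2, an inhibitory kinase of Cdk1, higher by 0.48, without WT MII replicate 2 (0.0544) or WT GV replicate 1 (0.0653), and Akap1, an anchor of protein kinase A, higher by 0.50, without WT MII replicate 2 (0.0601) or WT GV replicate 2 (0.0622), and 2 rises were left without WT MII replicate 2 and 3 without either WT GV array.

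Of 28 M-phase kinases, cyclins and phosphatases, the engine of the meiotic divisions, 2 fell and 2 rose (7.14% each), with a median of 0.11, and 1 fell and 1 rose without WT MII replicate 1 or WT GV replicate 2. Cdk1, the kinase of maturation-promoting factor, had 7.98 and 8.60 at WT MII and 10.07 and 10.07 at WT GV (difference -1.78 ± 0.18, adjusted p = 0.000741). Map2k1, a kinase of the pathway downstream of Mos, had 12.99 and 13.01 at WT MII and 12.40 and 12.32 at WT GV (difference 0.64, adjusted p = 0.00359). Plk1 and Aurka, kinases of spindle assembly, differed by 0.20 and 0.18 with overlapping arrays. Of 40 spindle and kinetochore genes 8 fell and 2 rose, with a median of 0.05, and 4 fell without WT MII replicate 1, WT MII replicate 2 or WT GV replicate 2 and 5 without WT GV replicate 1. Spc24, of the Ndc80 complex that holds microtubules at the kinetochore, had 8.47 and 8.10 at WT MII and 12.73 and 13.41 at WT GV (difference -4.79, adjusted p = 6.49e-05). Tuba1a, an alpha-tubulin, had 10.65 and 10.85 at WT MII and 12.98 and 12.71 at WT GV (difference -2.09 ± 0.12, adjusted p = 7.79e-05). Spire2, which nucleates the actin that moves the spindle, rose by 0.91 (adjusted p = 0.00375). The anaphase-promoting complex and its regulators had 1 fall and 3 rises of 28, of which Anapc4 rose by 0.51 (adjusted p = 0.00845), and 1 rise was left without either WT MII array. Anapc13 fell by 2.23, a call lost without WT MII replicate 2 (0.0683), WT GV replicate 1 (0.0509) or WT GV replicate 2 (0.0903).

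The egg coat and surface changed at single genes. Of 11 genes 3 fell and none rose, with a median of 0.05. Among the zona pellucida glycoproteins, Zp3, the coat protein long studied for sperm binding, had 15.64 and 15.44 at WT MII and 16.85 and 17.00 at WT GV (difference -1.38 ± 0.10, adjusted p = 0.000163), whereas Zp1, which cross-links the filaments, had 17.09 and 17.16 at WT MII and 17.03 and 17.13 at WT GV. Zp2 lay between and fell by 0.81, a call lost without WT MII replicate 1 (0.0663), WT MII replicate 2 (0.0694) or WT GV replicate 1 (0.0644). Cd9, a membrane protein that eggs need to fuse with sperm, had 7.29 and 6.80 at WT MII and 8.73 and 9.13 at WT GV (difference -1.88, adjusted p = 0.00281). Of 13 oocyte-secreted factors 0 were called, among them Bmp15 at 16.80 and 16.91 at WT MII against 16.89 and 16.69 at WT GV. Of 20 egg activation genes 1 fell and 1 rose (5% each). Orai1, a store-operated calcium channel, had 8.82 and 9.13 at WT MII and 10.26 and 9.95 at WT GV (difference -1.13, adjusted p = 0.00318), and Atp2a2, a pump that fills the store, had 15.55 and 15.29 at WT MII and 14.61 and 14.69 at WT GV (difference 0.77, adjusted p = 0.00244).

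Maternal-effect genes, whose products the embryo needs before it transcribes, were split. Of 17 genes of the subcortical maternal complex and the Nlrp family 5 fell and none rose, with a median of -0.08. Khdc3, known as Filia, had 9.32 and 8.98 at WT MII and 13.55 and 14.01 at WT GV (difference -4.64 ± 0.29, adjusted p = 0.000101, 24.9-fold lower), and its partner Ooep had 8.74 and 8.97 at WT MII and 11.16 and 11.89 at WT GV (difference -2.67, adjusted p = 0.000561). Nlrp2 and Nlrp14 fell by 1.75 and 0.62, and Nlrp5, known as Mater, by 0.51, the last a call lost without WT MII replicate 2 (0.0851), WT GV replicate 1 (0.0893) or WT GV replicate 2 (0.0533). Of 33 maternal chromatin factors only Npm2, a nuclear chaperone, was called, which fell by 1.27 and was lost without WT MII replicate 1 (0.0706) or WT GV replicate 2 (0.0568). Of 21 oocyte transcription factors 2 fell and 2 rose, with a median of 0.06. Figla, which drives the zona pellucida genes, fell to 6.34 and 6.12 at WT MII, against 9.18 and 9.61 at WT GV (difference -3.17, adjusted p = 0.000136), and Tbpl2, the oocyte form of the TATA-binding protein, fell by 2.41 (adjusted p = 0.00515). Pou5f1, known as Oct4, and Gata4 rose by 0.84 and 0.66 (adjusted p = 0.0426 and 0.0239). Pou5f1 was lost without WT MII replicate 1 (0.159), WT MII replicate 2 (0.149) or WT GV replicate 1 (0.123), and Gata4 without WT MII replicate 2 (0.113), WT GV replicate 1 (0.0773) or WT GV replicate 2 (0.113). Pou5f1 was also lost without any 1 of the 6 Patl2-/- arrays (0.0545 to 0.0701).

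Outside the lists, the steepest protein-coding falls beside Atp5md were Dnajc15, a mitochondrial co-chaperone, with 7.33 and 7.91 at WT MII against 12.83 and 13.79 at WT GV (difference -5.69), Tomm7, of the mitochondrial import channel (-5.62), Ftdc1 (-5.56), Ndufb4b, of complex I (-5.14), the tubulin-folding cofactor Tbcb (-5.11), the cytokine Mif (-5.00) and Slirp, which stabilises mitochondrial mRNA (-5.00). The rises were smaller and led by genes with little in common by name. Tjap1, a tight junction protein, had 10.90 and 11.40 at WT MII and 8.22 and 8.64 at WT GV (difference 2.72 ± 0.23, adjusted p = 0.000328, 6.58-fold higher). Tk2, the mitochondrial thymidine kinase, had 12.16 and 12.65 at WT MII and 9.66 and 9.99 at WT GV (difference 2.59 ± 0.33, adjusted p = 0.00289). Vps37b, of the ESCRT-I sorting complex, had 12.36 and 12.86 at WT MII and 10.52 and 10.78 at WT GV (difference 1.96, adjusted p = 0.000573), and Ess2 rose by the same 1.96. For all 4 genes both WT MII arrays lay above both WT GV arrays, as for every called rise. The calls of all 4 were lost when the 4 WT arrays were fitted alone (adjusted p of 0.0671 to 0.104). Slc25a44, a mitochondrial carrier, and Spryd3, higher by 2.11 and 1.84, were each lost without WT MII replicate 1 (0.0734 and 0.118), WT MII replicate 2 (0.0941 and 0.11) or WT GV replicate 1 (0.0862 and 0.13). Tomm7, Ftdc1, Ndufb4b, Tbcb, Mif and Slirp were named after their values were seen, as the next coding genes in order.

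Small RNA loci took 7 of the 15 steepest named rises. An array cluster reads the locus, so it does not tell a mature miRNA from its precursor or host transcript. Of 643 miRNA clusters 16 rose (2.49%) and 11 fell (1.71%), against 1.96% and 5.19% of all clusters, so the share of rises was close to that of all clusters. Within the repeat-rich families Mir297, Mir466, Mir467 and Mir669 8 of 87 rose (9.2%) and 1 fell (1.15%). The mature sequences of 2 risers of these families and of 2 fallers, chosen after their values were seen, are shown to set UG-repeat risers beside fallers, from RefSeq (GRCm38.p6), with the seed (bases 2 to 8) in capitals.
mmu-miR-467h, chr9:115381898-115381919, plus strand: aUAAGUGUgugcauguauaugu
mmu-miR-466k, chr3:85467396-85467418, plus strand: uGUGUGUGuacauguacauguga
mmu-miR-703, chr5:98475616-98475636, minus strand: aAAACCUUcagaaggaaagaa
mmu-miR-692, chr17:6895259-6895279, minus strand: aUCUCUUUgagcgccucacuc
No seed was shared among them. Mir467h had 9.72 and 8.91 at WT MII and 7.72 and 7.60 at WT GV (difference 1.66). Mir466k had 8.38 and 7.79 at WT MII and 6.54 and 6.82 at WT GV (difference 1.41) and was lost without WT MII replicate 1 (0.187), WT GV replicate 1 (0.143) or WT GV replicate 2 (0.0841), and without any 1 of the 3 Patl2-/- MII arrays or Patl2-/- GV replicate 3 (0.0544 to 0.0583). Both hairpins carry an uninterrupted UG repeat of 10 bases or more, found in 4 of 455 miRNA genes with a hairpin sequence (0.879%), of which 2 of 4 clusters rose, against 8 of 475 clusters (1.68%) without one. Only 4 of the 87 clusters of these families had a hairpin sequence, so the share of such repeats among miRNA genes cannot be read from these counts. The 2 that rose are the 2 shown, which were chosen for their rise, and the contrast was not tested. Mir703 had 13.76 and 13.13 at WT MII and 16.73 and 16.76 at WT GV (difference -3.30), and Mir692-1, which yields mmu-miR-692, had 5.26 and 5.20 at WT MII and 7.84 and 8.57 at WT GV (difference -2.98). The steepest named rise of the comparison was Mir466d, with 9.19 and 7.95 at WT MII against 5.49 and 5.34 at WT GV (difference 3.15 ± 0.36, adjusted p = 0.00159). Clusters annotated to Mir466f-3 and Mir669m-2 rose by 2.18 and 2.17, but both lay on another chromosome than these genes in RefSeq.

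RNAs of the spliceosome and of Cajal bodies, which are nuclear, were also among the steepest named rises. The shares of the 2 large classes that rose were close to the 1.96% of all clusters. Of 928 small nuclear RNA clusters 18 rose (1.94%) and 9 fell (0.97%), and of 959 small nucleolar RNA clusters 21 rose (2.19%) and 4 fell (0.417%), shares of falls below the 5.19% of all clusters. Of 37 guide RNA clusters 4 rose (10.8%). Scarna9 had 9.64 and 8.93 at WT MII and 5.85 and 6.98 at WT GV (difference 2.87, adjusted p = 0.00559), and was lost without WT MII replicate 1 (0.0511). Scarna17 had 8.95 and 8.52 at WT MII and 6.20 and 6.08 at WT GV (difference 2.60, adjusted p = 0.00296). Rnu2-10, a copy of the U2 small nuclear RNA, had 9.62 and 8.65 at WT MII and 6.47 and 6.73 at WT GV (difference 2.54, adjusted p = 0.00549), and a second cluster of that name, without a chromosome, rose by 2.46 and was lost without WT MII replicate 1 (0.0693) or WT GV replicate 1 (0.0714). Of the 18 small nuclear RNA rises 16 were higher in WT MII replicate 1 than in WT MII replicate 2, as were 20 of the 21 small nucleolar RNA rises, and 16 and 21 of these loci carry predicted names only.

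The change of Patl2-/- oocytes over the same step can be set beside that of WT. The WT differences are taken between WT arrays alone. The 6 Patl2-/- arrays were normalised together with them, however, and enter the estimate of spread behind the WT calls. In Patl2-/- oocytes 4708 clusters (7.14%) were lower and 2226 (3.37%) higher at MII than at GV. Of the 3426 clusters that fell in WT, 3388 (98.9%) had the same sign and 2888 (84.3%) were called in Patl2-/- oocytes, and 0 were called the other way. Of the 1293 that rose in WT, 1207 (93.3%) had the same sign, 732 (56.6%) were called and 4 were called the other way. The shares differ with 3 arrays a stage against 2 and were not tested against each other. The maturation change of Patl2-/- minus that of WT was called for 0 of 65956 clusters by limma (0% below and 0% above 0), with 2377 below and 1575 above 0 at an unadjusted p under 0.05 and a smallest adjusted p of 0.335, and without WT MII replicate 2 it was called for 2 clusters below 0.

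**Figure D4:**
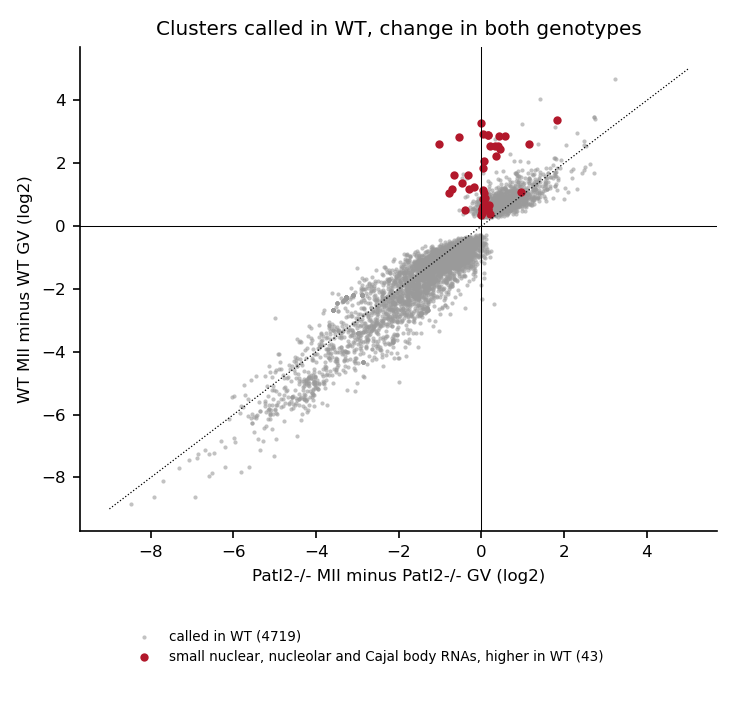
MII minus GV difference on the log2 scale in Patl2-/- oocytes (horizontal axis) and in WT oocytes (vertical axis) for the 4719 clusters called in WT. The dotted line marks equal change, and red points are the 43 small nuclear, nucleolar and Cajal body RNAs that rose in WT. Most points follow the line, and most red points stand near 0 on the horizontal axis.

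List medians are given side by side, and their differences were not tested. They were -1.59 in Patl2-/- and -1.67 in WT oocytes for cytosolic ribosomal proteins, -1.36 and -1.43 for oxidative phosphorylation, -0.89 and -0.81 for the mitochondrial ribosome, -0.96 and -0.83 for the proteasome and 0.44 and 0.69 for mitochondrially encoded mRNAs. Single coding genes came nearest to a difference. Tuba1a fell by 0.80 in Patl2-/- and by 2.09 in WT oocytes (difference between the changes 1.30 ± 0.15, adjusted p = 0.335). Dppa5a, a protein of early germ and stem cells, fell by 2.03 in Patl2-/- oocytes and by 4.04 in WT oocytes, where it had 12.78 and 12.95 at MII and 17.05 and 16.76 at GV (difference between the changes 2.01 ± 0.25). Nr2c2ap fell by 0.53 in Patl2-/- and rose by 0.50 in WT oocytes, and Msl2, of the male-specific lethal complex, fell by 0.46 and rose by 0.38. None of these passed the test of the difference. Dppa5a, Nr2c2ap and Msl2 were named after their values were seen.

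The WT rises of small nuclear and small nucleolar RNAs were seldom called in Patl2-/- oocytes. The 18 small nuclear RNAs that rose in WT hold 17 distinct sets of values, since clusters can repeat each other. They had a median change of 0.16 in Patl2-/- and 2.16 in WT oocytes, with 17 of the same sign and 1 called in Patl2-/-. The 21 small nucleolar RNAs had a median of -0.00 in Patl2-/- and 1.04 in WT, with 10 of the same sign, 0 called and 2 called the other way. In both classes some loci lay near the level of the median cluster, where a sign says little. Gm22090, a small nuclear RNA, and Gm25113, a small nucleolar RNA, had mean log2 levels of 4.31 and 4.24 in WT MII oocytes. Others lay well above it, such as Gm22748 at 10.71. Of the other classes, all 16 miRNA loci that rose in WT had the same sign and 9 were called, and of 675 coding clusters that rose 660 had the same sign and 465 (68.9%) were called. Scarna9 rose by 0.58 in Patl2-/- oocytes (adjusted p = 0.385) and by 2.87 in WT oocytes, and Rnu2-10 by 0.41 (adjusted p = 0.491) and 2.54, and the differences between the changes had adjusted p-values of 0.542 and 0.538, so a difference between the genotypes was not shown. These clusters were chosen by the WT call, which by itself makes the WT change the larger of the pair.

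**Figure D5:**
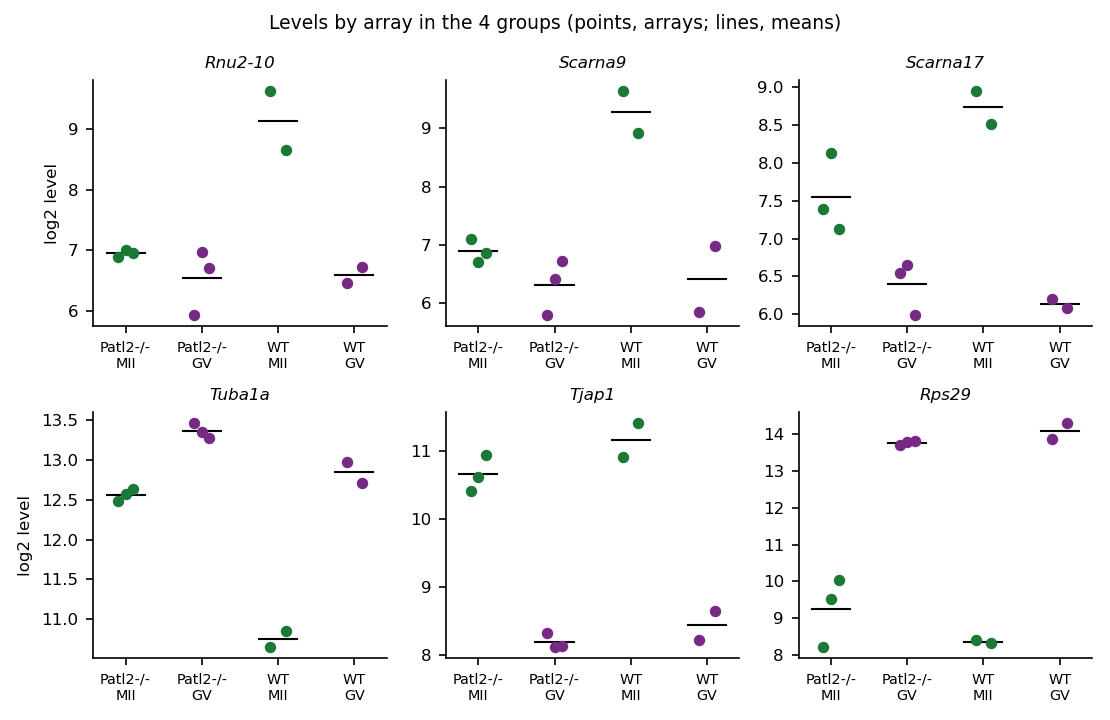
Log2 level (vertical axes, scaled to each panel) of 6 genes in the 3 Patl2-/- MII, 3 Patl2-/- GV, 2 WT MII and 2 WT GV arrays. Points are arrays and lines are means, green for MII and purple for GV. Rnu2-10 and Scarna9 stand high on the WT MII arrays alone, Scarna17 is highest there, Tuba1a is lowest there, and Tjap1 and Rps29 show like changes in both genotypes.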

How the data were processed

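The deposited table holds log2 values that the authors made with Affymetrix Expression Console (RMA: background correction, quantile normalisation and summary per transcript cluster) over all 10 Clariom D arrays together. The genome build of the array annotation is not given in the sources used here. The 6732 control rows were left out of the 72688 rows, which left 65956 clusters for the tests. Genes were named from the platform annotation (30638 clusters with 1 gene, 2176 with several, 33142 with none), and 30306 of the 1-gene clusters matched RefSeq, 283 of them on another chromosome or on none.

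Groups were taken from the titles. A limma 3.58.1 model (R 4.3.3) with 1 mean for each of the 4 groups gave the WT difference (MII minus GV), the Patl2-/- difference and the difference between them, with eBayes (residual degrees of freedom 6, prior 2.02), two-sided, with p-values adjusted by Benjamini-Hochberg over the 65956 clusters. Both differences thus share 1 estimate of the spread. Errors are standard errors of the fit. The methods called changes by ANOVA and fold without adjustment, which was run as an alternative. No depth applies to arrays, and their number limits the precision.

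A list used the brightest 1-gene cluster of each gene. The text names the 15 clusters per direction with the largest called difference (1 gene, no predicted name, mean log2 of at least 8 in a WT group, no overlap), the list members with the largest change, and genes of the storage, decay, meiotic and egg lists. The members and lists were chosen with earlier results of these data known. Alternatives were other normalisations, filters on dim clusters, other variance models, samples and thresholds, a replicate block and each array left out. The script was tested on simulated data. Sequences and spans are from RefSeq (GRCm38.p6).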

Additional observations from a re-analysis of the deposited data

How the results depend on the processing

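The WT counts, 3426 lower and 1293 higher, became 581 and 47 with only the 4 WT arrays, 2180 and 247 by the methods' ANOVA at their p and 2-fold limits, and 5 and 4 by that ANOVA after Benjamini-Hochberg adjustment. With clusters of 1 gene alone 2124 were lower. The rises numbered 4689 after a second quantile normalisation, 43879 with centring on bright clusters, 468 at an unadjusted p under 0.05 with a 2-fold limit and 315 at an adjusted p with that limit. Leaving out 1 of the 10 arrays gave 1845 to 3562 falls and 632 to 1350 rises.

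Of the WT calls, 3620 were also called in the same direction in Patl2-/- oocytes, a count of 5856 after a second quantile normalisation, 42275 with centring on bright clusters, 2273 with the 2-fold limit, and 2130 to 3546 with 1 array left out. The difference between the genotypes, with 0 calls, gave 190 clusters below and 339 above 0 at an unadjusted p under 0.05 with a 2-fold limit, and with 1 array left out 0 to 2 below and 0 to 0 above.

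The replicate numbers did not pair the samples: same-numbered arrays correlated at 0.062 in WT and at -0.03 to 0.057 in Patl2-/- oocytes after group means were taken out. With the number as a replicate block 3010 clusters were lower and 917 higher in WT, and 0 and 0 differed between the genotypes.

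Under 23 alternatives for each named gene, 3634 values kept their side of the threshold, 394 calls were lost, 69 were gained and 0 called differences changed sign. Of 147 called genes, 34 were lost without WT MII replicate 1, 34 when replicate 2 of WT MII was left out, 24 without WT GV replicate 1 and 25 without replicate 2 of WT GV. With the 4 WT arrays fitted alone 111 of the 147 calls were lost, among them all 15 steepest named rises. Patl2 (adjusted p = 0.0888), Cdk1 (0.109) and Gpr3 (0.117) were also lost, whereas Rpl39, Atp5md, Psmb1 and Khdc3 were kept. The lost calls thus rest on the spread of the Patl2-/- arrays too. List medians kept their sign throughout for the cytosolic ribosome (-1.85 to -1.22), oxidative phosphorylation (-1.65 to -0.98), the mitochondrial ribosome (-0.96 to -0.36), the proteasome (-1.07 to -0.36) and mitochondrially encoded mRNAs (0.60 to 1.22). Only 2 arrays a stage, 1 RNA mass for all and signal near background in most clusters limit what these data can show.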

Other observations

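Genes of the transcription machinery were lower in part. Of 24 subunits and general factors of RNA polymerase II 6 fell and 1 rose, with a median of -0.37, a median that turned to 0.08 when arrays were centred on bright clusters, and 3 fell without WT MII replicate 1. Polr2i, a small subunit of the polymerase, had 7.73 and 8.15 at WT MII and 10.38 and 11.14 at WT GV (difference -2.82, limma adjusted p = 0.000467). Polr2j, another small subunit, had 13.81 and 14.16 at WT MII and 14.99 and 15.17 at WT GV (difference -1.09, adjusted p = 0.00973). Chaperones had 7 falls and 0 rises of 30, with a median of -0.36 that turned to 0.09 with the same centring, and 2 falls without WT MII replicate 2 and 3 without WT GV replicate 2. Dnajc2, a ribosome-associated co-chaperone, had 8.54 and 8.79 at WT MII and 10.57 and 11.08 at WT GV (difference -2.16, adjusted p = 0.000264), and 4 subunits of the CCT chaperonin, Cct3, Cct4, Cct5 and Cct7, fell by 1.33, 0.90, 0.97 and 0.96.

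Of 44 replication factors, which the embryo uses after fertilisation, 5 fell (11.4%) and 3 rose (6.82%), with a median of 0.06. Among coding genes at a mean log2 of 8 or more 9.67% fell and 11% rose, so the counts do not set this list apart. In the list 2 fell and 1 rose without either WT MII array, and 3 fell without WT GV replicate 2. Gins1, of the GINS part of the replicative helicase, had 9.87 and 10.32 at WT MII and 12.56 and 12.12 at WT GV (difference -2.25, adjusted p = 0.00114), whereas Orc2, of the origin recognition complex, had 11.95 and 12.24 at WT MII and 11.48 and 11.46 at WT GV (difference 0.63, adjusted p = 0.00853). Among 31 glutathione and antioxidant enzymes 6 fell and 0 rose, with a median of -0.19 that turned to 0.26 with the same centring, of which Glrx5, a glutaredoxin of mitochondrial iron-sulfur cluster assembly, had 11.14 and 10.67 at WT MII and 13.89 and 14.41 at WT GV (difference -3.24, adjusted p = 0.000264). Of 27 small RNA pathway genes 2 fell and 1 rose. Gtsf1, a partner of Piwi proteins, had 11.06 and 11.21 at WT MII and 12.95 and 13.34 at WT GV (difference -2.01, adjusted p = 0.000381), Asz1 fell by 1.03 and Mov10l1 rose by 0.45. Asz1 was lost without WT MII replicate 1 (0.217), WT MII replicate 2 (0.11) or WT GV replicate 2 (0.211), and Mov10l1 without WT MII replicate 1 (0.226), WT MII replicate 2 (0.0675) or WT GV replicate 2 (0.212). Mov10l1 was also lost without any 1 of the 6 Patl2-/- arrays (0.0622 to 0.0775), and Asz1 without any 1 of the 3 Patl2-/- MII arrays (0.0676 to 0.0759) or Patl2-/- GV replicate 1 (0.0658). Of 33 glycolysis and citric acid cycle enzymes 3 fell and 1 rose. Mdh2 had 10.01 and 10.01 at WT MII and 11.17 and 11.09 at WT GV (difference -1.12, adjusted p = 0.00377), and Cs, citrate synthase, had 14.44 and 14.69 at WT MII and 13.93 and 13.92 at WT GV (difference 0.64, adjusted p = 0.00575).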
